A study of Sus scrofa domesticus with 4 samples.

Results

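A set of 10 genes whose products bind fatty acids in the cell, bring them in or burn them in mitochondria was followed in explants of pig myometrium, the smooth muscle wall of the uterus, cultured with or without adiponectin. The 10 genes are FABP3, FABP4, FABP5, CD36, LPL, CPT1A, CPT1B, CPT2, ACADM and HADHA. Their probes were found by the RefSeq accession that the array files give, which yielded 43 of 43603 probes, for 10 of 3029 genes that could be named. Of these 43 probes, 26 from 8 genes were bright enough to test, which took a signal well above background in treated or in control RNA on 3 or more arrays. For 3 of the 26, the CPT2 probe (in control) and 2 of FABP4 (in treated), this held in 1 condition only.

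The explants came from 4 mature gilts (Large White x Polish Landrace), 7 to 8 months old and 120 to 130 kg, on days 15 to 16 of pregnancy. Slices of about 100 mg were kept for 2 h in 2 ml of culture medium and then for 24 h with adiponectin at 10 µg/ml, the treated group, or with no addition, the control group. Nothing else differed between the groups as labelled, and a cut slice in medium has no blood supply. RNA of 1 treated and 1 control culture, each labelled with its own dye, was hybridised to each of 4 Agilent arrays, so that every array gives 1 ratio of treated over control. No label says which gilt an array came from or that both RNAs of an array came from 1 gilt. The tests below thus measure spread between arrays with the same dye on treated RNA, drawn toward a spread common to all tested probes. Part of it may be technical.

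Long-chain fatty acids are poorly soluble and toxic when free, and cells handle them bound to proteins. Lipoprotein lipase (LPL) frees them from circulating triglyceride at the vessel wall, CD36 helps them across the plasma membrane, and the fatty acid binding proteins carry them in the cytosol. Carnitine palmitoyltransferases move them into mitochondria (CPT1A or CPT1B on the outer membrane, CPT2 on the inner), where enzymes such as ACADM and HADHA shorten them for energy. Adiponectin, a hormone made mainly by fat cells, is known in muscle and liver for raising fatty acid oxidation, in part through the kinase AMPK.

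By the dye fields of the labels, Cy5 marked the treated RNA on arrays 1 and 3, while Cy3 marked it on arrays 2 and 4, although the labelling protocol's text describes only the first orientation. Arrays 1, 2 and 3 shared slide 1, and array 4 was on slide 2. Between 46.1% and 51.0% of spots were well above background in Cy3 and between 54.9% and 63.1% in Cy5, so a dim gene was seen more often in the channel that held Cy5. Over the 21209 tested probes, Pearson's r between the ratios of 2 arrays ran from -0.30 (arrays 2 and 3) to 0.26 (arrays 2 and 4). It was -0.07 between arrays 1 and 3, which share a dye orientation. Of the markers of myometrial smooth muscle looked for, 5 were on the array by name (ACTA2, DES, CNN1, MYLK and SMTN), and all 5 were well above background on all 4 arrays in both channels.

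No change with adiponectin passed the test in any of the 10 genes, of which 8 could be tested. FABP5 and CPT1A had the highest fitted ratios. The lowest was that of CPT2, whose treated signal was well above background on only 2 arrays, and with background correction by normexp and loess normalisation HADHA was lowest (-0.30, against -0.14 for CPT2). The fitted value is the log2 ratio of treated over control from limma, with a second term for each probe's dye offset, and p-values were adjusted over all 21209 probes (Benjamini-Hochberg, threshold 0.05). Of the 26 member probes 0 passed, where limma passed 0% of all tested probes. The adjusted p of the members lay between 0.862 and 0.999, and 0.862 was also the smallest of any probe. At an unadjusted p under 0.05, 5 member probes were higher and 1 was lower, against 3.63% and 2% of all probes (5.62% in either direction). Those 5 were the 4 probes of FABP5 and 1 of CPT1A, and the 1 was that of CPT2, which passed the brightness filter only through control, where it was higher, so nothing is read from it. Probes of 1 gene read the same RNA and are not separate results. The median probe had a 95% interval of 0.38 to either side on the log2 scale, a fold of 1.30, which limits what 4 arrays can show.

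**Figure D1:**
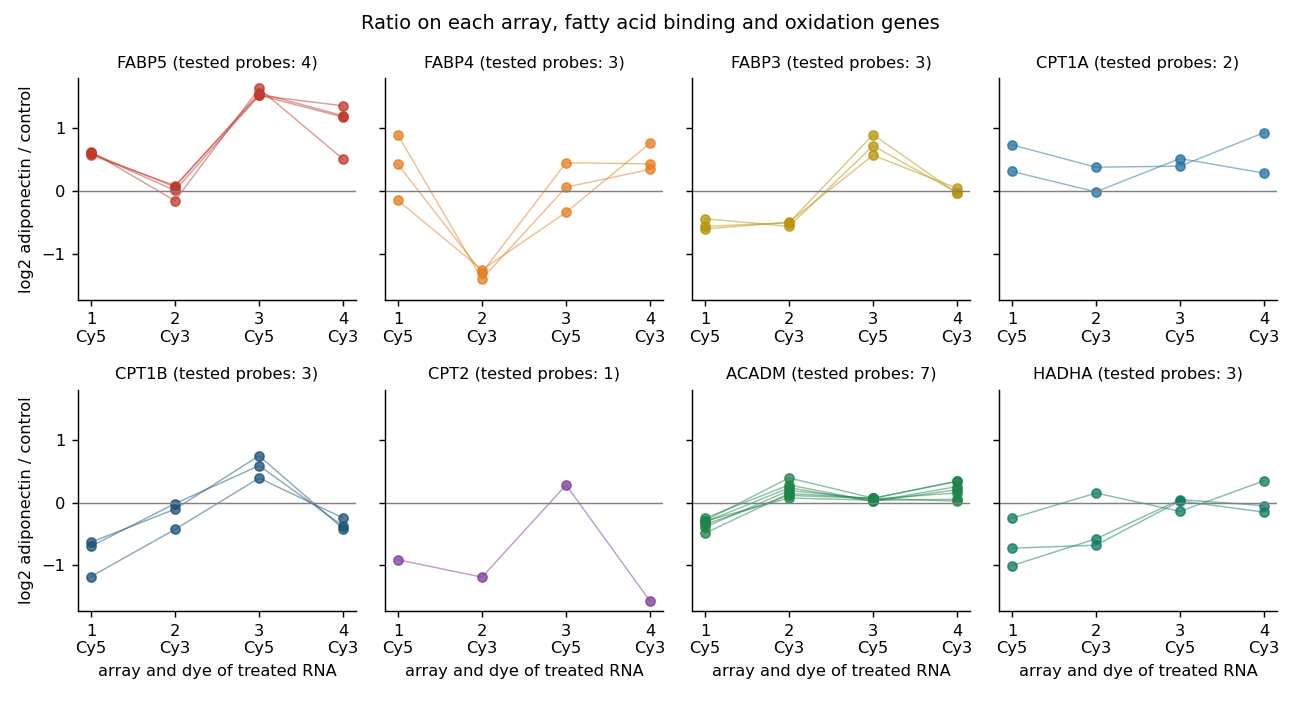
Log2 ratio of adiponectin over control on each of the 4 arrays, for the tested probes of 8 genes. Each point is 1 probe on 1 array, lines join the values of a probe, and the x axis names the dye of the treated RNA. FABP5 lies at or above 0.51 on arrays 1, 3 and 4 and near 0 on array 2, FABP4 lies at -1.26 or lower on array 2, and FABP3 and CPT1B lie highest on array 3.

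FABP5, the epidermal fatty acid binding protein, which is also made by macrophages and many epithelia, was bright in every channel. Its brightest probe (A_72_P623937) had control signals of 4467, 5670.3, 2161 and 2577 on arrays 1 to 4, in the scanner's processed units, and treated signals of 6915, 5099.6, 6715 and 3666. The ratios of that probe were 0.63, -0.15, 1.64 and 0.51 on the log2 scale. Treated signal was thus above control on arrays 1, 3 and 4 and below it on array 2. The fit gave 0.66 ± 0.22 (moderated SE, n = 4 arrays), a 1.58-fold higher signal, with a 95% interval from 0.12 to 1.19 (limma adjusted p = 0.862). The residual SD of this probe was 0.60, and limma drew it toward a common 0.32, so the SE is smaller than the probe alone would give.

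The other 3 probes of FABP5 gave fitted values of 0.84, 0.86 and 0.87, all with an adjusted p of 0.862, and were above 0 on all 4 arrays. The 4 probes stayed close together on arrays 1 (0.57 to 0.63), 2 (-0.15 to 0.09) and 3 (1.53 to 1.64). On array 4 they spread, with the brightest at 0.51 and the others between 1.18 and 1.36. The probes therefore put the same arrays high and low but differed in size on array 4. Being above 0 on all 4 arrays was true of 4 of the 26 member probes, against 6.28% of all tested probes, and 3 of those 4 were FABP5. No member probe was below 0 on all 4 arrays, which held for 6.34% of all tested probes. Leaving out 1 array moved the size of these values and not their sign. Without array 1 the brightest probe was at 0.91 and the others between 1.08 and 1.11, and without array 2 they were at 0.82 and between 1.12 and 1.21. Without array 3 the brightest probe was at 0.40 and the others between 0.60 and 0.64. Without array 4, which leaves slide 1 alone, they were at 0.49 and between 0.54 and 0.57. On slide 2 only the ratio of array 4 is at hand, and it still holds the dye offset of each probe.

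To see which channel moved, each signal was divided by the 75th percentile of its channel on its array. On this scale the control signal of the brightest FABP5 probe was 3.45, 4.31, 2.59 and 2.97 (log2) on arrays 1 to 4, and the treated signal 4.09, 4.15, 4.22 and 3.46. Control RNA was in Cy3 on arrays 1 and 3 and in Cy5 on arrays 2 and 4. Within either dye, the control signal was lower on the array with the higher ratio, on array 3 than on array 1 and on array 4 than on array 2. Control is the divisor of the ratio, so this order is in part built in. From array 2 to array 4 the treated signal of the brightest probe fell too (4.15 to 3.46), while that of the other probes rose. Over the 4 arrays the control signal ranged over 1.42 to 1.86 log2 units in the 4 probes and the treated signal over 0.21 to 0.76. A wider range in the control channel was found for 67.1% of all tested probes and for 21 of the 26 member probes. The direction of this difference is thus common on these arrays. The medians over all tested probes were 0.95 log2 units for control and 0.76 for treated. The control range of FABP5 was above the median in all 4 probes, and that of the tested FABP4 probes was wider still (1.93 to 3.01). The treated range of FABP5 was about equal to the median in the brightest probe (0.76) and below it in the others.

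**Figure D2:**
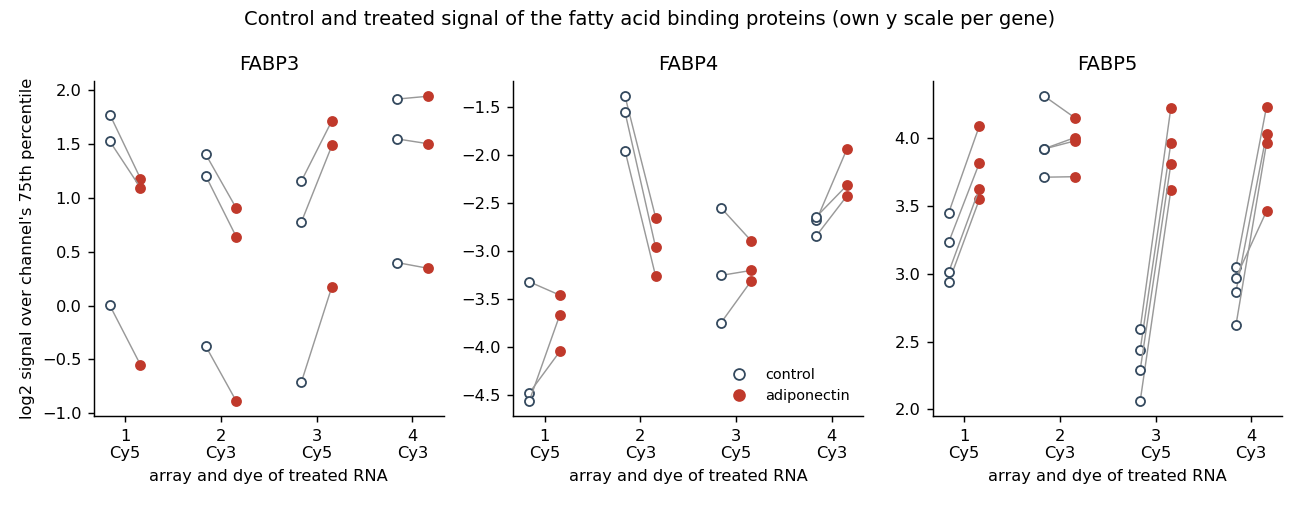
Log2 signal over the 75th percentile of its channel, for control (open circles) and adiponectin (filled circles) on each array, with a line joining both signals of a probe and a y scale of its own for each gene. In FABP5 the control signal is lowest on array 3 (2.06 to 2.59) while the treated signal of that array (3.62 to 4.22) is close to that of arrays 1 and 2.

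Markers of macrophages and monocytes had ratios that moved with those of FABP5 from array to array, while the levels in each channel did not. Of 14 such genes, 10 were on the array by name and 9 were tested, and FCGR1A was not well above background on any array. The median ratio of the 9 was 0.50, -0.23, 2.22 and 0.63 on arrays 1 to 4, the same signs and the same highest array as the brightest FABP5 probe. The other FABP5 probes were also highest on array 3, but on array 2 they were above 0 (0.01 to 0.09). The signal of the 9 markers was summed in multiples of the channel's 75th percentile. On arrays 1 to 4 it was 13.5, 9.70, 5.66 and 16.9 in control and 18.5, 7.47, 18.6 and 27.9 in treated channels. In control it was lowest on array 3, as was FABP5, but highest on array 4, while every FABP5 probe was highest on array 2. In treated it was lowest on array 2, where no FABP5 probe had its lowest treated signal. CD163, a scavenger receptor of macrophages, had ratios of 0.55, 0.14, 2.22 and 1.44, and CD14, a monocyte receptor, of -0.28, -0.23, 0.07 and 0.46. None of the 9 passed the test. Markers of endometrial epithelium, of which 5 of 8 were tested, had median ratios of -0.71, 1.24, -0.95 and 0.69. These were opposite in sign to every FABP5 probe on arrays 1 and 3, and on array 2 to the brightest probe only. The summed signal of the 5 markers ran from 1.07 to 9.10 in control and from 0.82 to 21.1 in treated channels, and none of the 5 passed the test. What part either cell type had in the FABP5 values was not tested. In bulk RNA of a slice, fewer cells of a type and less RNA per cell cannot be told apart.

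**Figure D3:**
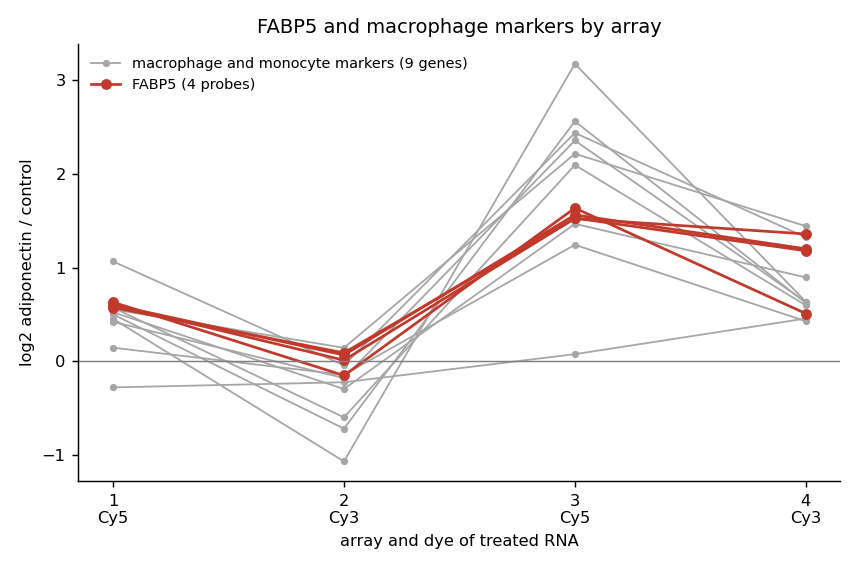
Log2 ratio of adiponectin over control by array for the 4 FABP5 probes (dark lines) and for 9 macrophage and monocyte markers (grey lines), 1 probe per marker. Both sets are lowest on array 2 or array 1 and, apart from CD14, highest on array 3.

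FABP3, the heart and muscle form of the family, was bright on all arrays and had no common direction. The control signals of its brightest probe were 1400.3, 760.8, 797.6 and 1245, and the treated signals 921.3, 539.6, 1186 and 1283. The ratios were -0.60, -0.50, 0.57 and 0.04, below 0 on arrays 1 and 2, above on array 3 and near 0 on array 4. The fitted value was -0.12 ± 0.23 (interval -0.68 to 0.44, limma adjusted p = 0.949). The other 2 probes, at -0.08 and -0.05, were also below 0 on arrays 1 and 2 and highest on array 3. Without array 1 the fitted value was 0.17 and without array 2 it was 0.01 (and -0.42 without array 3), so its sign rested on those arrays. The 5 smooth muscle markers had median ratios of -0.66, -0.10, 0.95 and -0.25, also highest on array 3. Their summed signal, on the scale used for macrophages, ran from 458.1 to 1163 in control and from 498.9 to 1054 in treated channels. Their part in the FABP3 values was not tested.

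FABP4, the form of fat cells and of capillary endothelium, was dim. Of its 7 probes 3 were tested, and 3 others were not well above background in any channel. The brightest tested probe was well above background in control on 3 arrays and in treated on 4. Its control signals were 40.9, 109.4, 61.2 and 51.3, and its treated signals 36.9, 45.8, 48.4 and 87.1. The ratios were -0.15, -1.26, -0.34 and 0.76, and the fit gave -0.25 ± 0.32 (interval -1.04 to 0.55, limma adjusted p = 0.923). The other tested probes, at 0.00 and -0.03, also had their lowest ratio on array 2 (-1.30 and -1.40) and were above 0 on the other arrays. Those other probes were well above background in treated on 3 arrays but in control on 2, and so passed the filter through treated only. Nothing is read from their values above 0. Array 2 was lowest in the brightest probe as well, and without it the fitted value of that probe was 0.26. Without array 4 it was -0.75. Another probe, well above background on 2 arrays per condition and not tested, had ratios of 2.06, -2.09, 1.41 and -0.24, again lowest on array 2. With background correction by normexp and loess normalisation the brightest probe was at -0.12.

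Neither cell type that FABP4 is known for had a marker past the test. Of 8 adipocyte markers 4 were tested, with a median ratio of 0.02, -0.50, -0.19 and -0.11 on arrays 1 to 4. PLIN1 and CIDEC, which coat the fat droplets of adipocytes, were not well above background on any array, and ADIPOQ, the adiponectin gene, was too dim to test. The summed signal of the 4 ran from 2.33 to 3.13 in control and from 2.00 to 2.60 in treated channels. Of 8 endothelial markers 5 were tested, with medians of 0.00, -0.29, 0.07 and 0.47 and summed signals from 18.1 to 33.8 in control and from 18.3 to 29.4 in treated channels. Both medians, like FABP4, were lowest on array 2, as was the median over all named genes (-0.10). Of the single markers, CIDEA, CDH5 and CLDN5 were lowest on array 2 and the others were not, with LEP highest there (0.47). What part either cell type had in the FABP4 values was not tested. FABP4 and FABP5 lie on the same chromosome of the pig reference with 2 annotated genes between them, 1 of them PMP2, another member of the family.

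The genes of uptake, CD36 and LPL, were at the limit of detection. Of the 4 CD36 probes none was well above background on more than 1 array in either condition, and 2 were so on no array. Processed signals of CD36 ranged from 4.58 to 39.2 in control and from 4.70 to 38.3 in treated channels. Of the 5 LPL probes, 1 was well above background on 1 array in control, and the other 4 were so on none. LPL signals ranged from 4.28 to 40.7 in control and from 5.03 to 36.6 in treated channels. No fold is given for either gene, and a change of either was not detectable at this brightness.

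Among the genes of the carnitine shuttle, CPT1A was fitted above 0. CPT1B, fitted below 0, had no stable sign, and nothing is read from the dim CPT2. CPT1A, the widely expressed enzyme that commits long-chain fatty acids to oxidation, had 2 tested probes. The brighter of them (A_72_P443903) had control signals of 504.6, 348.7, 490.0 and 286.1 and treated signals of 841.0, 454.2, 645.3 and 546.4. Treated signal was above control on all 4 arrays, with ratios of 0.74, 0.38, 0.40 and 0.93. The fit gave 0.61 ± 0.16 (interval 0.22 to 1.00), a 1.53-fold higher signal (limma adjusted p = 0.862). Leaving out 1 array moved this value between 0.47 (without array 4) and 0.75 (without array 2).

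Other probes of CPT1A gave smaller or mixed values. The second tested probe had ratios of 0.31, -0.01, 0.52 and 0.29 and a fitted value of 0.28 ± 0.14 (limma adjusted p = 0.862). The brightest CPT1A probe on the arrays was not tested, because its spot on array 4 was flagged as an outlier by the scanner software. Its ratios on arrays 1 to 3 were 0.50, 0.12 and -0.01, and that spot read -0.14. Of 2 dimmer probes, each well above background on 2 arrays per condition, 1 had ratios of 0.46, -0.16, 0.70 and 0.14 and the other of 0.80, -1.25, 1.60 and 0.51. Thus 1 of the 5 probes with values on at least 3 arrays was above 0 on all 4 arrays, and array 2 was at or below 0 in 3 of the others. The size of the CPT1A value depends on which probe stands for the gene, and the mean of the 2 tested probes was 0.44.

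CPT1B, the muscle form of the same enzyme, was bright, with control signals of 1679, 532.0, 637.9 and 1989 for its brightest probe and treated signals of 1085, 495.4, 1071 and 1491. Its ratios were -0.63, -0.10, 0.75 and -0.42, above 0 on array 3 only. The fitted value was -0.10 ± 0.24 (interval -0.70 to 0.50, limma adjusted p = 0.962). The other 2 probes were at -0.12 and -0.36, with array 3 as their only array above 0. Without array 1 the brightest probe was at 0.24, without array 3 at -0.44, and with normexp and loess at 0.03, so its sign was not stable. Like FABP3, CPT1B was highest on array 3, where the smooth muscle markers were also highest (median 0.95), and their part in it was not tested. The difference between CPT1A and CPT1B in response was not tested.

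CPT2, which completes the shuttle on the inner membrane, had 1 probe, and it was dim. Its control signals were 48.1, 28.7, 18.8 and 24.1 and its treated signals 25.6, 12.6, 22.9 and 8.12. It was well above background in control on 3 arrays and in treated on 2. Ratios were -0.91, -1.19, 0.28 and -1.57, below 0 on arrays 1, 2 and 4. The fitted value was -0.85 (limma adjusted p = 0.862), and with normexp and loess, where a constant is added to every signal, it was -0.14. Without array 1 it was -0.55 and without array 3 it was -1.14. With treated signal at background on 2 of 4 arrays, and entry to the test through control alone, no fold is given for CPT2.

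**Figure D4:**
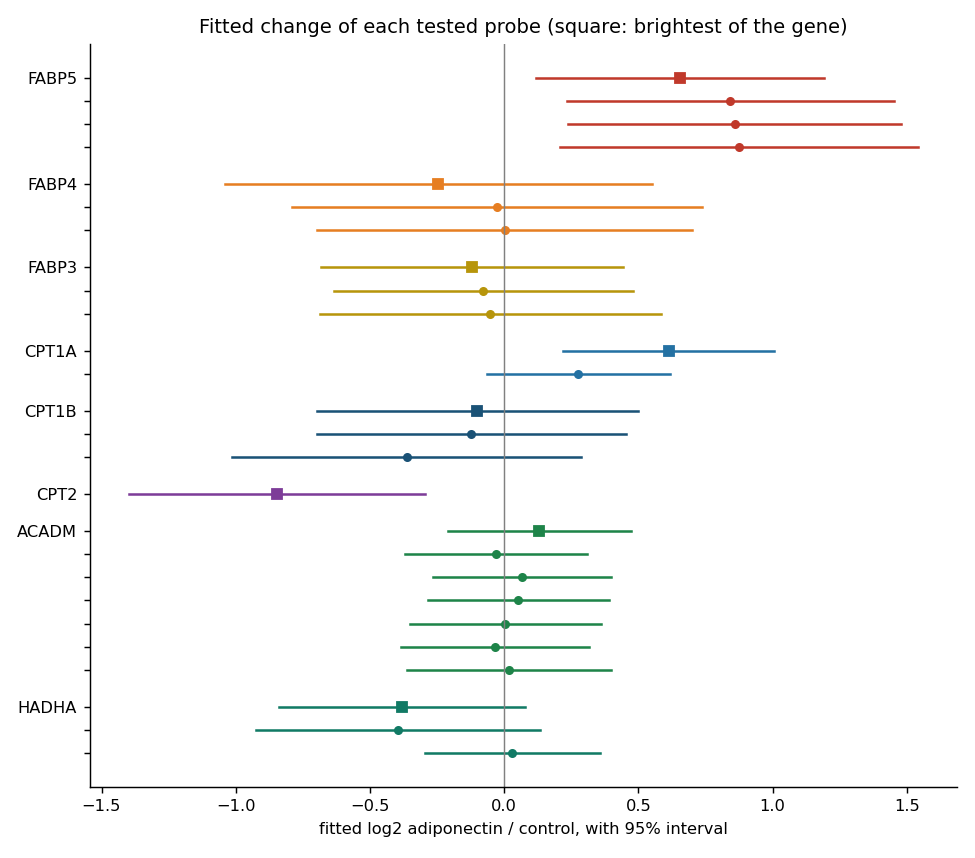
Fitted log2 ratio of adiponectin over control with its 95% interval, for the 26 tested probes of 8 genes, the square marking the brightest probe of each gene. The intervals of the 4 FABP5 probes and 1 CPT1A probe leave out 0. That of CPT2 does so here but rests on a treated signal well above background on only 2 arrays, and no probe passes after adjustment over 21209 probes.

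The enzymes of beta-oxidation had small fitted values or probes that disagreed. ACADM, the medium-chain acyl-CoA dehydrogenase of the first step, had 7 probes, all tested. The brightest had control signals of 4001.5, 904.9, 2409 and 2055 and treated signals of 3279.8, 1190.5, 2533 and 2608. Its ratios were -0.29, 0.40, 0.07 and 0.34, and the fit gave 0.13 ± 0.14 (interval -0.21 to 0.47, limma adjusted p = 0.908). All 7 probes were below 0 on array 1 (-0.49 to -0.25) and above 0 on arrays 2 to 4, and their fitted values ran from -0.03 to 0.13. Its level differed more from array to array than between both channels of an array. The control signal ranged over 1.52 to 1.71 log2 units across arrays in these probes, lowest on array 2, and the treated signal, also lowest on array 2, over 0.96 to 1.28.

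HADHA, a subunit of the trifunctional protein that completes the oxidation of long chains, had 3 tested probes, which disagreed. The brightest had control signals of 1016, 788.6, 666.6 and 642.8 and treated signals of 614.6, 493.4, 679.7 and 579.5. Its ratios were -0.73, -0.68, 0.03 and -0.15, clearly below 0 on arrays 1 and 2 only, and the fit gave -0.38 ± 0.19 (interval -0.84 to 0.08, limma adjusted p = 0.862). The second probe was alike, at -0.39. The dimmest had ratios of -0.25, 0.15, -0.14 and 0.35 and a fitted value of 0.03 ± 0.13. Without array 1 the brightest probe was at -0.19, and without array 2 at -0.25.

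Set together, the 8 tested genes had no common direction. With the brightest tested probe for each, 3 genes were above 0 (FABP5, CPT1A and ACADM), against 45.5% of the 2073 named genes tested. The median fitted value was -0.11, and it was -0.02 over all named genes. With only probes bright in both channels on all arrays, which leaves out CPT2 and FABP4, the median of the members was 0.02. The members varied more between arrays than most genes. After the dye term, the residual SD of the 8 genes had a median of 0.61 log2 units, against 0.29 over all named genes, and 7 of the 8 were above that median. ACADM, at 0.18, was the exception. This was not particular to the members. The marker lists of cell types with tested genes were also above 0.29, with medians from 0.32 (endothelium) to 0.97 (macrophages and monocytes) and 0.89 for smooth muscle. The median ratio of the 8 genes by array was -0.45, -0.32, 0.34 and 0.19, against -0.03, -0.10, 0.05 and -0.02 over all named genes.

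Other genes of fatty acid import and oxidation did not pass either. Of 58 genes listed, 35 were on the array by name and 29 were tested, and 0 passed in either direction. At an unadjusted p under 0.05, 0 were higher and 1 was lower, against 5.4% of all named genes in either direction. Their median fitted value was 0.00, with 14 of 29 above 0, and their residual SD had a median of 0.27. The 4 with the smallest p were all fitted below 0. ECI2, an enoyl-CoA isomerase for unsaturated chains, was at -0.60 ± 0.21, with ratios of -1.11, -0.88, -0.08 and -0.33. ACSL1, which activates fatty acids with coenzyme A, was at -0.64 ± 0.33, with ratios of -1.81, -0.60, 0.23 and -0.38. ANGPTL4, a secreted inhibitor of LPL, was at -0.30 ± 0.15, with ratios of -0.42, -0.56, -0.15 and -0.07, and UCP2, a mitochondrial carrier, was at -0.27 ± 0.14. All 4 had a limma adjusted p of 0.862. Of the 29 genes 3 were below 0 on every array, ANGPTL4 among them, against 7.53% of named genes, and none was above 0 on every array, against 5.45%. ECI2 and ACSL1, like HADHA, had their lowest ratio on array 1, and without that array they were at -0.34 and -0.13. Without array 3, ACSL1 was at -1.15. Without array 2, ANGPTL4 was at -0.18 and UCP2 at -0.16, and with normexp and loess ECI2 was at -0.39, ANGPTL4 at -0.18 and UCP2 at -0.15.

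Among regulators, PPARD and PPARG are nuclear receptors that switch on genes of fatty acid use. PPARG was at 0.08, and its 3 tested probes ran from -0.13 to 0.08. PPARD was at -0.21, but it passed the brightness filter through control only, with treated well above background on 2 arrays, so nothing is read from it. Their coactivator PPARGC1A was at 0.02. PDK4, which spares glucose when fat is burnt and is a known target of these receptors, had ratios of 1.54, -0.31, -1.40 and -0.38 and a fitted value of -0.14 ± 0.45. The arrays thus disagreed on PDK4 in sign, with array 1 highest and array 3 lowest. The 8 tested probes of PDK4 were fitted between -0.39 and 0.00. The electron carriers ETFA and ETFB, which take electrons from ACADM and its relatives, were at 0.00 and 0.01 by their brightest probes. ACADS and ACADL, the dehydrogenases for short and long chains, were at 0.02 and 0.04. Over all tested probes, the 8 of ETFA ran from -0.27 to 0.01 and the 6 of ACADL from -0.18 to 0.25. PPARA was too dim to test. FABP1, FABP2 and FABP7, the liver, intestine and brain forms of the family, were not well above background on any array.

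**Figure D5:**
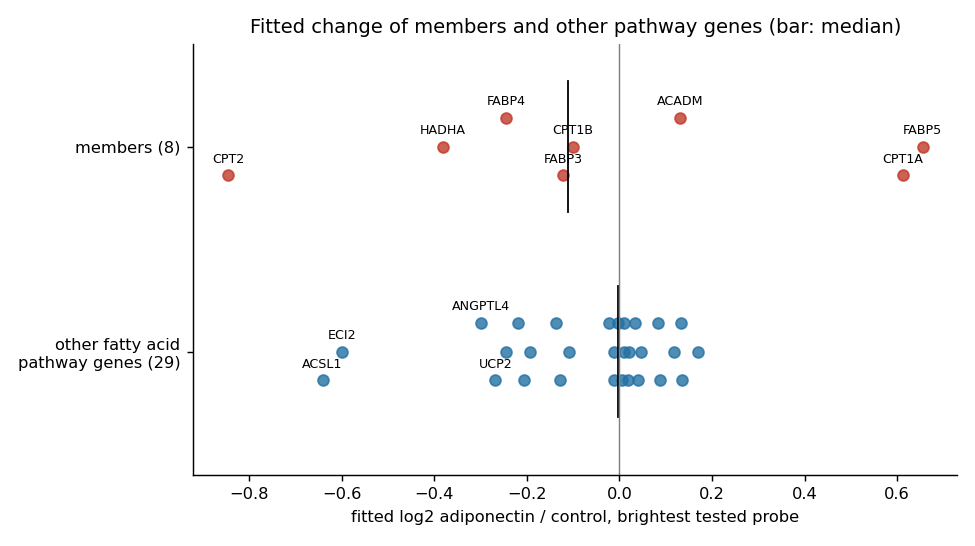
Fitted log2 ratio of adiponectin over control for the 8 tested members and for 29 other genes of fatty acid import and oxidation, 1 point per gene (its brightest tested probe), spread vertically only to separate points. The black bar is the median, at -0.11 for the members and 0.00 for the others. By these probes FABP5 and CPT1A lie above every other gene shown. For CPT1A this depends on the probe, since its second tested probe was at 0.28, and other probes of ACSL3 and CAV1 reached 0.45 and 0.39. The lowest point is CPT2, which was dim, and the next lowest member is HADHA at -0.38, above ACSL1 and ECI2.

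Genes with the most similar array values were looked up for the member whose 4 ratios lay farthest from 0, which was CPT2 (root mean square 1.09). Likeness was the mean absolute difference of the ratios over 4 arrays, over all named genes that are not members. Closest were RTN1 at 0.32, MYOC at 0.34, RAB11B at 0.40 and FAM213B at 0.41. CPT2 entered the test through control alone, with treated signal well above background on only 2 arrays, so nothing is read from these genes. RAB11B and FAM213B, too, were well above background in treated on only 2 arrays. The same look-up was done for FABP5, chosen after its values were seen. Closest to it were CYP3A29 at 0.14, CD86, a costimulatory receptor of antigen-presenting cells, at 0.14, BCL2A1, a survival protein of leukocytes, at 0.15 and SYK, a kinase of blood cells, at 0.17. CD86 had ratios of 0.59, -0.36, 1.37 and 0.56. Likeness rests on 4 arrays only, and all ratios of an array share its RNA and dyes.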

How the data were processed

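The 4 two-channel Agilent arrays were read from the deposited scanner files, made with Agilent Feature Extraction 10.7.3.1, per the file headers. The deposited intensity columns hold spot, local background and processed signals. The deposited log10 ratio is Cy5 over Cy3 of background-subtracted, dye-normalised processed signals, per the file headers, and was exactly 0 for 18.1% to 28.9% of spots. It was divided by log10(2) and its sign was turned on arrays 2 and 4, where treated RNA was in Cy3. The authors' deposited series table holds log2 values with scale, centring and direction not stated. For spots bright in both channels its slope on the turned ratios was 1.00 on each array, and at least 99.99% of values lay within 0.01. Its column medians were -0.10, 0.13, -0.14 and 0.16. How its dim values were made is unknown.

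Control spots and spots flagged as outliers were left out, as were ratios with neither channel well above background. Replicate spots were averaged per probe. Testing required a value on all 4 arrays and, in treated or control, a signal well above background on 3 or more, which left 21209 of 43603 (48.6%). Accessions without versions were matched to a RefSeq table of assembly Sscrofa11.1, used for names and neighbours only. Symbols were found for 6700 of 7125 probes that carry RefSeq accessions. Ratios were fitted with limma 3.58.1 under R 4.3.3 (lmFit and eBayes, two-sided) with treatment and dye terms, Benjamini-Hochberg adjusted. Values after ± are moderated SEs, which leave out the spread taken up by the dye term, and intervals are 95%. The error rests on 2 residual degrees of freedom per probe and on 3.86 from the spread of all tested probes. The fit was tested on simulated data. The brightest tested probe stands for a gene. Named genes were the members, the 4 other pathway genes with the smallest p, and the 4 genes most like the member farthest from 0. FABP5's likeness, the markers and the regulators were added as description. Alternatives were other normalisation, centring, values, filters, dye term, probe averaging and leaving out arrays. The members and lists were chosen with earlier results of these data known. Sequences, coordinates and erythrocyte markers are not given, since no table here holds sequences, the files name no genome build, and none of those markers was on the array by name.

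Markers of striated muscle (2 tested of 6) had median ratios of -0.38, -1.30, 0.00 and -0.60, and none passed.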

Additional observations from a re-analysis of the deposited data

Results flagged for a closer look

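Among 30 sets of ratios (26 member probes and 4 other pathway genes), each over 4 arrays, 2 had a single array well apart from the rest, and about 1.5 would be so by chance. One was a FABP4 probe (A_72_P598018) with a ratio of -1.30 on array 2 and 0.42, 0.45 and 0.43 on arrays 1, 3 and 4. This probe passed the brightness filter only through treated, the channel that was higher on arrays 1, 3 and 4, so nothing is read from it. The other 2 tested FABP4 probes were also lowest on array 2, and 1 of them passed in the same way. The other was an ACADM probe (A_72_P627490) with -0.29 on array 1 and between 0.04 and 0.08 on arrays 2 to 4, and all 7 ACADM probes were lowest on array 1.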

How the results depend on the processing

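No member gene passed under any of 11 alternatives. With each gene taken by its brightest tested probe or the mean of its probes, the smallest limma adjusted p was 0.315. It was that of FABP5 without array 1, leaving aside CPT2. The dim CPT2 probe had 0.133 without array 3, and was at 0.963 with normexp and loess. Taken by the brightest tested probe or by the mean of a gene's probes, FABP5, CPT1A, ACADM, CPT2 and HADHA kept their sign in every alternative that gave a value. The other probes of ACADM each changed sign over the alternatives (1 of them from -0.12 to 0.16). So did the dimmest probe of HADHA (-0.02 to 0.08). CPT1B turned to 0.031 with normexp and loess. Leaving out 1 array gave -0.44 to 0.24 for CPT1B, -0.42 to 0.17 for FABP3 and -0.75 to 0.26 for FABP4, and the number of the 8 genes above 0 was 3 to 5. The median of the other pathway genes was between -0.074 and -0.025 in these omissions, and the median of the members between -0.31 and 0.20. Over all probes, omissions gave 0 to 23 calls, the 23 without array 3 and none a member. With 3 arrays, 1 of both dye orientations has a single array, which counts as much as the pair of the other. CPT2 and FABP4 have no value with both channels bright on all arrays. A random slide block was planned and not run, since no correlation could be estimated with 1 array on slide 2. Slide 1 alone is the fit without array 4. No paired analysis was possible because every array is 1 ratio of a treated and a control RNA and the labels give no other pairing. Low signal limits what can be said of CD36, LPL, CPT2 and FABP4.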
